A study of Ostrinia furnacalis with 9 samples.

Results

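In heads of diapausing larvae of the Asian corn borer, Ostrinia furnacalis, 3504 broad peaks of H3K9me3 and 3812 of H3K27me3 were compared place by place. They are the 2 diapause peak lists of the series, taken by their sample labels, with the single sequence held to be the mitochondrial genome left out. Together they make 7316 of the 29330 peaks in the 6 deposited lists. The diapause larvae were moved when newly moulted into the fourth instar from a stock at 27 °C and days of 16 h light and 8 h dark. They then spent at least 30 days at 20 °C, with light and dark of 12 h each. Both lists share stage, tissue and rearing, and differ in the antibody. Whether they came from the same chromatin, how many heads went into each, and the sex of the larvae are not given in the sources used here. For the non-diapause larvae the sources used here give the stock at 27 °C and days of 16 h light and 8 h dark. No move to 20 °C is given for them. Their heads, and pre-diapause heads taken after 20 days at 20 °C with the shorter day, were used only to set beside the diapause lists. Both are called earlier stages here. Only pre-diapause is known to be an earlier time under the same rearing, and non-diapause differs in temperature and day length.

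Each mark had 1 library, so no p-value is given, and the depth of the libraries is unknown. All intervals in brackets are 95% intervals and cover counting error only. For shares they are exact Clopper-Pearson intervals, and for medians they are exact binomial order-statistic intervals. Where no peak is listed the mark was not called, and may still have been present below the caller's threshold. The fold of a peak is its deposited enrichment over the caller's background, on the scale of its own list. Gene names near peaks are not given, since the gene table used here places 0 of its 17154 genes on a named scaffold, and for the same reason the tissue label was not checked against genes.

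H3K9me3 is trimethylation of lysine 9 of histone H3. It is written by SET-domain enzymes such as Su(var)3-9 and SetDB1 of Drosophila, is bound by HP1 proteins, and is known from compacted, repeat-rich heterochromatin. H3K27me3 is trimethylation of lysine 27, written by the Polycomb repressive complex PRC2 and read by PRC1, and is known from silenced developmental genes, often in long domains. The pair is usually described as marking separate kinds of silent chromatin, though places with both are known.

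Somewhat under 50% of each list met the other. Of the H3K9me3 peaks, 1748 or 49.9% (48.2–51.6) shared at least 1 bp with an H3K27me3 peak, and 1756 did not. Of the H3K27me3 peaks, 1754 or 46.0% (44.4–47.6) met an H3K9me3 peak, and 2058 did not. Peaks of the first kind are called shared here, and those of the second kind H3K9me3-only and H3K27me3-only. The split rests on these lists alone and describes them.

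The marks shared 1.03 Mb. H3K9me3 peaks covered 2.33 Mb, of which 44.4% was also under H3K27me3 peaks. H3K27me3 peaks covered 2.50 Mb, of which 41.4% was under H3K9me3 peaks. The area under either mark came to 3.79 Mb, and the area under both made 27.3% of it. Within shared peaks the agreement was closer, since 79.7% of the bases of shared H3K9me3 peaks and 84.9% of those of shared H3K27me3 peaks lay under both marks. H3K9me3-only peaks held 1.03 Mb and H3K27me3-only peaks 1.28 Mb.

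Where peaks of the marks met, they mostly met one to one and with nearly common edges. The shared peaks formed 1757 pairs. Only 9 H3K9me3 peaks met 2 H3K27me3 peaks, and only 3 H3K27me3 peaks met 2 H3K9me3 peaks. The midpoints of a pair were a median of 44.5 bp apart, with the 25th and 75th percentiles at 19.0 and 113 bp. Starts and ends each differed by a median of 52.0 bp. In the median pair the narrower peak lay wholly within the other, at 100% of its width, and 79.2% of the joint width was common to both. Near-misses counted as shared were rare: at the 10th percentile of pairs, 88.5% of the narrower peak was still covered. The smallest overlap was 1 bp, on NW_021130558.1, where an H3K27me3 peak ended on the base at which an H3K9me3 peak began.

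Neither mark was usually the inner one. The H3K9me3 peak lay inside the H3K27me3 peak in 459 pairs, or 26.1% (24.1–28.2). The reverse held in 469 pairs, or 26.7% (24.6–28.8), and the remaining 829, or 47.2% (44.8–49.5), were staggered. The enclosing peak was the stronger call of its list. H3K9me3 peaks that enclosed a partner had a median −log10 q of 8.59, against 5.91 for those that lay inside one. H3K27me3 peaks that enclosed a partner had a median of 8.92, against 6.74 for those inside. Median widths were 455 and 651 bp for H3K9me3 and H3K27me3 where H3K9me3 was inside, and 697 and 467 bp where H3K27me3 was inside.

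Folds ranked alike over the pairs. Spearman's rho between the 2 deposited folds was 0.74 over 1757 pairs, and 0.60 between the widths. This is a description across places of 1 library a side. The points share the larvae's stage and the mapping of the locus, and possibly the chromatin and the input.

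**Figure D1:**
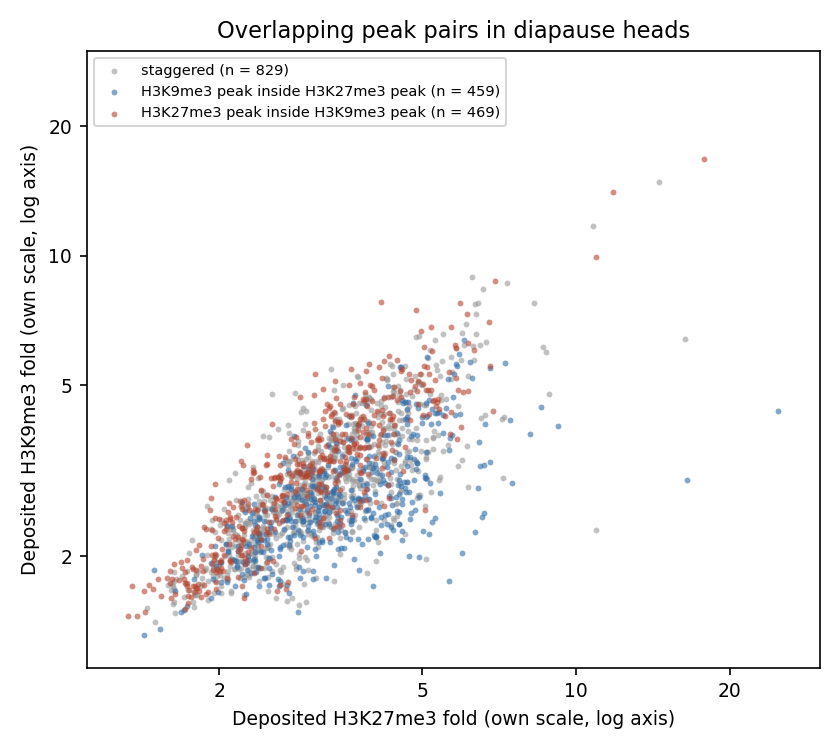
Deposited H3K9me3 fold (vertical) against deposited H3K27me3 fold (horizontal) for the 1757 overlapping pairs at diapause, both axes logarithmic, each point a pair and coloured by which peak lay inside the other. The cloud runs along a diagonal with rho of 0.74, and a few pairs with H3K27me3 folds above 10 lie far below it.

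The pairs strongest in both lists, ranked by the lower of the 2 folds, were led by NW_021132286.1. There an H3K9me3 peak at 1366164–1368282 had a fold of 16.8 and enclosed an H3K27me3 peak at 1366195–1368255 with a fold of 17.8. At NW_021131699.1 the H3K9me3 peak lay at 19010–19591 with a fold of 14.9 and the H3K27me3 peak at 19006–19577 with 14.5, a staggered pair whose edges differ by a few bases. NW_021134071.1 held the widest H3K9me3 peak of the list, 5485 bp at 255325–260809 with a fold of 14.1, and its H3K27me3 partner of 5464 bp at 255335–260798 had 11.8. At these 3 places the called peaks of the 2 lists thus coincided almost base for base. The part of signal common to both libraries and not specific to either mark was not tested. NW_021136498.1, with folds of 11.7 for H3K9me3 and 10.8 for H3K27me3, and NW_021134443.1, with 9.96 and 11.0, completed the top 5.

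Not every strong pair was strong in both lists. The highest H3K27me3 fold at diapause, 24.8 on NW_021134836.1, belonged to a peak of 877 bp. The H3K9me3 peak inside it was 609 bp wide with a fold of 4.36. The clearest pairs with H3K9me3 inside H3K27me3 were weaker: NW_021131773.1 had an H3K9me3 peak at 663555–663994 with a fold of 6.37 inside an H3K27me3 peak at 663550–664015 with 6.02. On NW_021132084.1 the pair at 4434–5150 and 4410–5172 had folds of 5.90 and 5.89.

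Strong calls met the other mark far more often than weak calls. In the strongest 10% of the H3K9me3 list by −log10 q, 87.1% (83.2–90.5) of peaks were shared, and in the weakest 10% 21.7% (17.5–26.3), against 49.9% over the list. The H3K27me3 list went from 81.6% (77.4–85.4) to 14.1% (10.8–18.0), against 46.0%. In the middle of both lists, at −log10 q between 4.49 and 6.41, the share lay between 45.3 and 50.9%. Single-mark peaks were therefore on the weak side of each list. The median −log10 q was 6.73 (6.43–6.90) for shared and 4.35 (4.18–4.44) for single H3K9me3 peaks, and 7.20 (6.91–7.50) and 4.26 (4.12–4.39) for H3K27me3.

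**Figure D2:**
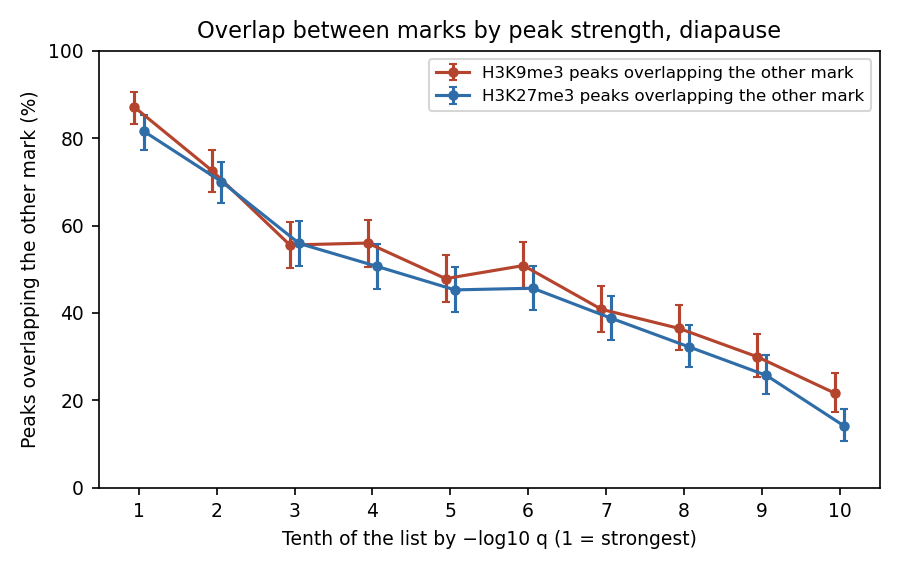
Share of peaks that overlapped the other mark (vertical, percent) in steps of 10% of the list ordered by −log10 q (horizontal, 1 strongest), for H3K9me3 and H3K27me3 at diapause, with exact 95% intervals as bars. The lines go from 87.1% and 81.6% in the strongest 10% to 21.7% and 14.1% in the weakest.

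Shared peaks were also wider. The median width was 567 bp (548–588) for shared and 479 bp (461–494) for single H3K9me3 peaks, a ratio of 1.18. It was 554 bp (538–570) and 469 bp (457–483) for H3K27me3, again 1.18. When sharing required 50% of the peak the ratios were 1.06 and 1.11. Their bounds, formed from the ends of the median intervals, were 0.979 to 1.13 for H3K9me3 and 1.05 to 1.17 for H3K27me3. For H3K9me3 these bounds include equal widths. Wider peaks also have more bases with which to meet another peak, and the part of this in the difference was not tested.

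The width difference was greatest among strong calls. In the strongest 20% of the H3K9me3 list, 559 shared peaks had a median width of 559 bp and 141 single peaks 364 bp, a ratio of 1.54. The ratio was 1.04 in the weakest 20%. For H3K27me3 it was 1.43 in the strongest 20%, with medians of 567 and 398 bp. It was 0.94 in the next-to-weakest 20% and 1.02 in the weakest, where shared and single peaks had medians of 549 and 537 bp. Single peaks among the strongest 20% were thus short, not far above the narrowest peaks listed, 306 bp for H3K9me3 and 299 bp for H3K27me3.

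The strongest H3K9me3-only peaks by fold were of this short kind. The top 5 had folds between 5.32 and 5.46 and widths between 325 and 366 bp. NW_021133857.1 387–711 lay on a scaffold with no diapause H3K27me3 peak. The nearest one was 143 kb from NW_021137676.1 311243–311597 and 28.5 kb from NW_021131411.1 541261–541604. It was 15.6 kb from NW_021131322.1 335793–336149 and 1.81 kb from NW_021135815.1 285856–286221. Of the 5, all but NW_021131322.1 had an H3K27me3 peak at an earlier stage. So had 32.1% of all H3K9me3-only peaks and 61.3% of the H3K9me3 list.

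For H3K27me3 the strongest single-mark peaks had folds of 6.28 to 8.87 and widths of 374 to 488 bp, around the 469 bp median of all H3K27me3-only peaks. NW_021131459.1 83–456 led, on a scaffold with no diapause H3K9me3 peak. NW_021131337.1 1232328–1232747 (fold 6.82), NW_021136930.1 1315644–1316131 (6.33), NW_021133086.1 223275–223751 (6.30) and NW_021135935.1 69801–70195 (6.28) followed. These 4 had peaks of both marks in the non-diapause and the pre-diapause lists alike. So had 29.6% of all H3K27me3-only peaks and 47.5% of the H3K27me3 list. On NW_021136930.1 the earlier H3K9me3 folds were 9.73 at non-diapause and 9.50 at pre-diapause, and the nearest diapause H3K9me3 peak lay 4.83 kb away.

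Wide peaks met the other mark at different rates in the 2 lists. Of the 72 H3K9me3 peaks wider than 2000 bp, 56 or 77.8% (66.4–86.7) met H3K27me3, against 49.9% of the list. Of the 76 H3K27me3 peaks as wide, 34 or 44.7% (33.3–56.6) met H3K9me3, close to the 46.0% of the list. The widest H3K27me3 peak, 6234 bp at NW_021131485.1 545261–551494, had a fold of 3.05 and no H3K9me3 peak within 55.4 kb. The third widest lay on the same scaffold at 521814–527176, 5363 bp wide with a fold of 3.09, and was 31.9 kb from H3K9me3. After NW_021134071.1, the widest H3K9me3 peaks were 4733 bp at NW_021133398.1 502697–507429 and 4701 bp at NW_021137710.1 110050–114750. Both overlapped H3K27me3, and both had low folds, 1.64 and 1.67.

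Nearly all of the 42 wide H3K27me3-only peaks overlapped H3K27me3 peaks of the earlier lists. H3K27me3 was called at an earlier stage at 41 of them and H3K9me3 at 1. Of all H3K27me3-only peaks, wide or not, 74.2% (72.3–76.1) had earlier H3K27me3 and 52.9% (50.7–55.0) earlier H3K9me3, and of all H3K27me3 peaks 81.7% and 71.1%. The 42 wide peaks' median fold was 3.04 with a median −log10 q of 4.62. They lay on 25 scaffolds, with 7 on NW_021131485.1, 6 on NW_021135154.1 and 4 on NW_021131364.1. The 34 wide H3K27me3 peaks that met H3K9me3 at diapause had a median fold of 1.94, a median −log10 q of 9.90, and earlier H3K9me3 at all 34. Of all shared H3K27me3 peaks 92.6% had it.

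Single-mark peaks mostly lay between 10 and 100 kb from the other mark. On scaffolds with both, the median distance was 37.3 kb (34.6–40.5) from an H3K9me3-only peak to H3K27me3, and 41.4 kb (38.1–44.3) from an H3K27me3-only peak to H3K9me3. Within 1 kb of the other mark lay 37 H3K9me3-only peaks, or 2.11% (1.49–2.89), and 33 H3K27me3-only peaks, or 1.60% (1.11–2.24). A further 15.5% (13.8–17.3) and 15.0% (13.5–16.6) lay between 1 and 10 kb. The class between 10 and 100 kb held 52.2% (49.9–54.6) and 53.5% (51.3–55.7). Distances over 100 kb were found for 17.7% (15.9–19.5) and 19.7% (18.0–21.5). The remaining 220 and 210 peaks, or 12.5% (11.0–14.2) and 10.2% (8.93–11.6), were on scaffolds where the other mark had no peak. In each class the intervals of the 2 marks overlapped.

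**Figure D3:**
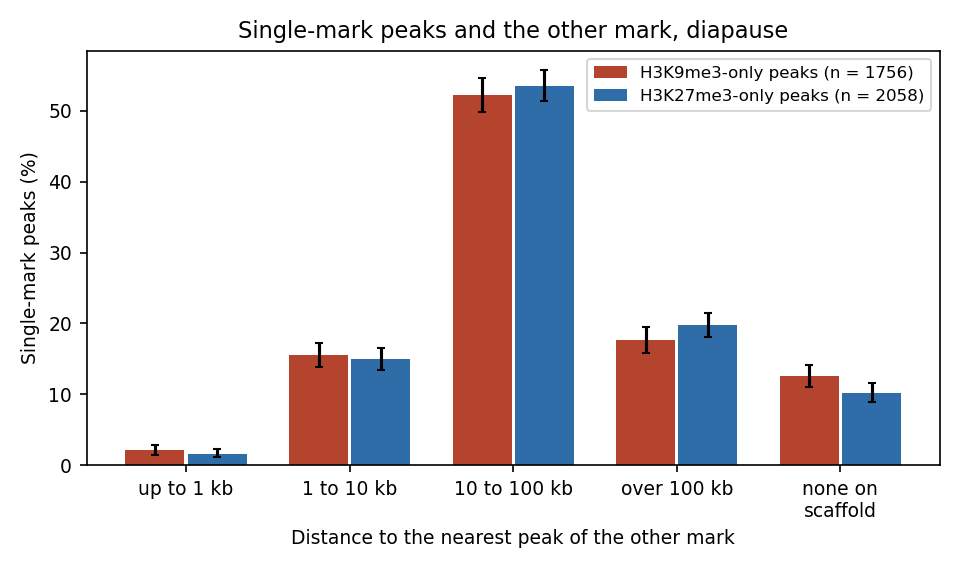
Share of single-mark diapause peaks (vertical, percent) by distance to the nearest peak of the other mark (horizontal), for 1756 H3K9me3-only and 2058 H3K27me3-only peaks, with exact 95% intervals as bars. In both marks the class from 10 to 100 kb holds over 50% of the peaks, and 2.11 and 1.60% lie within 1 kb.

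The closest pair of single-mark peaks, picked out after the distances were seen, was 16 bp apart on NW_021131007.1. The H3K27me3 peak lay at 217374–217879 and the H3K9me3 peak at 217896–219093. At each earlier stage a peak of each mark overlapped both of these diapause peaks. The next closest, 21 bp apart on NW_021131877.1 and 42 bp apart on NW_021137726.1, had earlier peaks of both marks too. Both marks at both earlier stages were met by 11.1% of all H3K9me3-only and 29.6% of all H3K27me3-only peaks. Over the whole lists it was 39.8% of H3K9me3 and 47.5% of H3K27me3 peaks. At the other end, the H3K9me3-only peaks farthest from H3K27me3 lay on NW_021130315.1 at 36606–37000 (704 kb, fold 1.75) and at 212910–213301 (527 kb, fold 1.56), and on NW_021137484.1 at 189490–189819 (599.7 kb, fold 3.40). The H3K27me3-only peaks farthest from H3K9me3 lay at NW_021137580.1 200–669 (619.8 kb, fold 2.45), NW_021132596.1 35791–36342 (605 kb, fold 2.21) and NW_021136314.1 554063–554378 (553 kb, fold 3.21). All 3 of these had H3K9me3 at non-diapause, as had 42.5% of all H3K27me3-only peaks and 61.6% of the H3K27me3 list. Of the 3 H3K9me3-only peaks, the one on NW_021137484.1 had H3K27me3 at pre-diapause alone, and the other 2 had it at neither earlier stage. Of all H3K9me3-only peaks 32.1% had it at an earlier stage.

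H3K27me3-only peaks kept closer company with their own mark than H3K9me3-only peaks did with theirs. The median distance to the nearest peak of the same mark was 19.2 kb (16.5–21.7) for H3K27me3-only and 31.6 kb (28.4–34.8) for H3K9me3-only peaks. Shared peaks lay 35.1 kb (32.0–37.6) from the nearest H3K27me3 peak and 34.0 kb (31.2–36.6) from the nearest H3K9me3 peak. Where both distances could be measured, the distance to the same mark was set against that to the other mark. The same mark was closer for 63.7% (61.4–65.9) of H3K27me3-only and 54.6% (52.0–57.2) of H3K9me3-only peaks. Without NW_021135154.1, the scaffold with most H3K27me3 peaks, these were 60.9% (58.5–63.2) and 54.8% (52.2–57.3). Where the nearest place had both marks, the closer mark was set by which peak edge reached farther. These are thus not shares of peaks whose nearest place had the same mark alone.

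The order of places along scaffolds gave the same picture. Overlapping peaks were merged into 5559 places, of which 31.4% had both marks, 31.6% H3K9me3 only and 37.0% H3K27me3 only. The place that followed an H3K27me3-only place was again H3K27me3-only in 49.7% of 1673 cases. The place that followed an H3K9me3-only place was H3K9me3-only in 37.0% of 1370 cases, and after a place with both marks it had both in 34.2% of 1358. Without NW_021135154.1 the H3K27me3 figure was 45.8%, against 35.5% of all places. Runs of at least 5 places of a kind numbered 40 for H3K27me3-only, 10 for H3K9me3-only and 9 for both marks.

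The longest runs of H3K27me3-only places were on NW_021135154.1, with 84 places over 597 kb at 1514257–2111377 and 26 over 395 kb at 958391–1353228. NW_021131485.1 had 18 over 69.0 kb at 493959–562956, and NW_021134911.1 15 over 253 kb. H3K9me3-only runs were shorter in number of places: 13 over 144 kb on NW_021133039.1 at 552744–696320, 9 over 80.8 kb at the start of NW_021131070.1, and 7 over 29.4 kb on NW_021135007.1. For places with both marks the longest run was 7, spread over 257 kb of NW_021130561.1.

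Of the 1158 scaffolds with a diapause peak, 854 had both marks, 162 had H3K9me3 only and 142 H3K27me3 only. Scaffolds with a single mark mostly had 1 peak, 124 of those with H3K9me3 and 111 of those with H3K27me3. The farthest peak of any list lay at a median of 47.1 kb on scaffolds with a single mark and 278 kb on those with both. Scaffold lengths were not used here, and with few peaks this span is small by construction. Rich scaffolds, with at least 5 peaks of one mark and 0 of the other, were few, 1 for H3K9me3 and 4 for H3K27me3. With −log10 q of at least 3 these counts were 0 and 1.

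Scaffolds without H3K27me3 carried at most 5 H3K9me3 peaks each. NW_021136686.1 had 5 H3K9me3 peaks over 21.6 kb of span, with a median fold of 2.07, and had H3K27me3 peaks at no stage. NW_021137730.1, NW_021137927.1, NW_021130568.1 and NW_021137789.1 had 4 each. On NW_021137730.1 these covered 45.8% of the 7.67 kb up to the farthest peak. NW_021130568.1 was called at diapause and in none of the earlier lists of either mark.

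Scaffolds without H3K9me3 carried at most 10 H3K27me3 peaks each. The classes were alike in total, with 210 peaks on the 142 scaffolds with H3K27me3 only and 220 on the 162 with H3K9me3 only. NW_021135906.1 had 10 over 123 kb, covering 8.34% of that span, and had 11 at non-diapause and 10 at pre-diapause, with 1 H3K9me3 peak at each of those stages. NW_021137889.1 had 9, against 4 in each earlier list, and at most 1 H3K9me3 peak in an earlier list. NW_021136101.1 with 6, NW_021130935.1 with 5 and NW_021137835.1 with 4 had H3K9me3 peaks earlier, 5, 1 and 5 at non-diapause and 6, 3 and 7 at pre-diapause in that order. So only some scaffolds bare of H3K9me3 at diapause were nearly bare of it in the earlier lists.

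The 5 largest imbalances leaned to H3K27me3. NW_021135154.1 had 151 H3K27me3 and 15 H3K9me3 peaks over 3.25 Mb, NW_021131364.1 35 and 9 over 0.253 Mb, NW_021131485.1 21 and 3, NW_021131540.1 21 and 5, and NW_021132047.1 21 and 6. On each of them the lean was also present at non-diapause, where the counts were 109 and 24, 24 and 7, 15 and 4, 12 and 5, and 11 and 6. H3K27me3 covered 13.7% of the span of NW_021131364.1 and 6.70% of that of NW_021131485.1, where the median H3K27me3 peak was 1105 bp wide. A difference of 10 or more peaks was found on 10 scaffolds toward H3K27me3 and on 1 toward H3K9me3.

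That one was NW_021133039.1, with 21 H3K9me3 and 7 H3K27me3 peaks. It was followed by NW_021131070.1 with 15 and 6, NW_021135007.1 with 9 and 1, NW_021130308.1 with 18 and 11, and NW_021130882.1 with 9 and 2. These 5 were picked out for their lean to H3K9me3 after the counts were seen. At non-diapause they had 8 and 4, 11 and 3, 5 and 1, 16 and 12, and 7 and 4. Their median H3K9me3 fold lay between 1.95 and 2.50, below the 2.57 of the list.

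**Figure D4:**
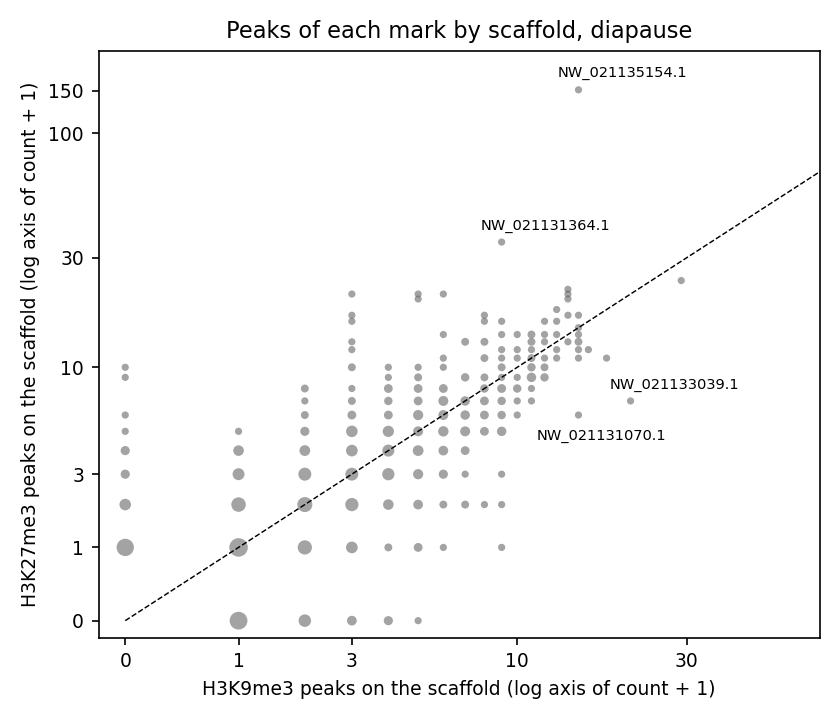
Number of H3K27me3 peaks (vertical) against number of H3K9me3 peaks (horizontal) on each of the 1158 scaffolds with a diapause peak, on log axes of the count plus 1. Larger points stand for more scaffolds and the dashed line marks equal counts. NW_021135154.1, with 151 against 15, stands apart, and most other scaffolds lie near the line.

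NW_021135154.1 held 6.80% of the H3K27me3-only peaks. Of its 151 H3K27me3 peaks 11 were shared, or 7.28% (3.69–12.7), and of its 15 H3K9me3 peaks also 11, or 73.3% (44.9–92.2). Its H3K27me3 peaks were wide and weak, with a median width of 669 bp, a median fold of 2.85 and a median −log10 q of 3.23. Elsewhere 47.6% (46.0–49.2) of H3K27me3 peaks were shared. The median distance of H3K27me3-only peaks to H3K9me3 was 37.9 kb elsewhere.

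The earlier lists, which the split did not use, separated shared from single-mark peaks. Over the whole H3K9me3 list 61.3% of peaks overlapped an H3K27me3 peak of at least 1 earlier stage. Among shared H3K9me3 peaks it was 90.6% (89.2–91.9), and among H3K9me3-only peaks 32.1% (29.9–34.4). Over the whole H3K27me3 list 71.1% overlapped earlier H3K9me3, with 92.6% (91.3–93.8) of shared and 52.9% (50.7–55.0) of H3K27me3-only peaks. Earlier peaks of their own mark were found at 67.2% (64.9–69.4) of H3K9me3-only peaks, against 79.9% of the whole H3K9me3 list. Most shared H3K9me3 peaks, 68.5% (66.3–70.7), met all 4 earlier lists, against 39.8% of the whole H3K9me3 list. None of the lists was met by 3.89% (3.03–4.91), against 16.4%. Shared peaks were also stronger and wider, and the part of this in their meeting earlier peaks was not tested.

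The other mark had been called earlier more often at H3K27me3-only than at H3K9me3-only peaks, and the whole lists differed in the same direction. Of the H3K27me3-only peaks 29.6% (27.6–31.6) had both marks at both earlier stages, and of the H3K9me3-only peaks 11.1% (9.67–12.7). Of all H3K27me3 peaks it was 47.5% and of all H3K9me3 peaks 39.8%. At non-diapause 42.5% (40.4–44.7) of H3K27me3-only peaks met H3K9me3, while 14.5% (12.9–16.2) of H3K9me3-only peaks met H3K27me3, against 61.6% and 44.2% of the whole lists. At pre-diapause the shares were 46.6% (44.4–48.7) and 30.6% (28.5–32.9), against 65.6% and 60.0%. Where an H3K27me3-only peak had its own mark at non-diapause, H3K9me3 was there too in 67.8% (64.8–70.6) of 1008 cases. For H3K9me3-only peaks H3K27me3 was there in 39.7% (35.6–43.9) of 562. Counted over the whole non-diapause lists, 78.1% of H3K27me3 peaks met H3K9me3 and 64.9% of H3K9me3 peaks met H3K27me3. Both shares of single-mark peaks thus lay below those of the lists, which differed in the same direction. The earlier H3K9me3 lists were longer than the H3K27me3 lists, with 4483 against 3755 peaks at non-diapause and 7225 against 6539 at pre-diapause. With all lists shortened to their 3504 strongest peaks, the shares with the other mark earlier were 43.1% (40.8–45.4) of H3K27me3-only and 20.3% (18.4–22.2) of H3K9me3-only peaks.

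**Figure D5:**
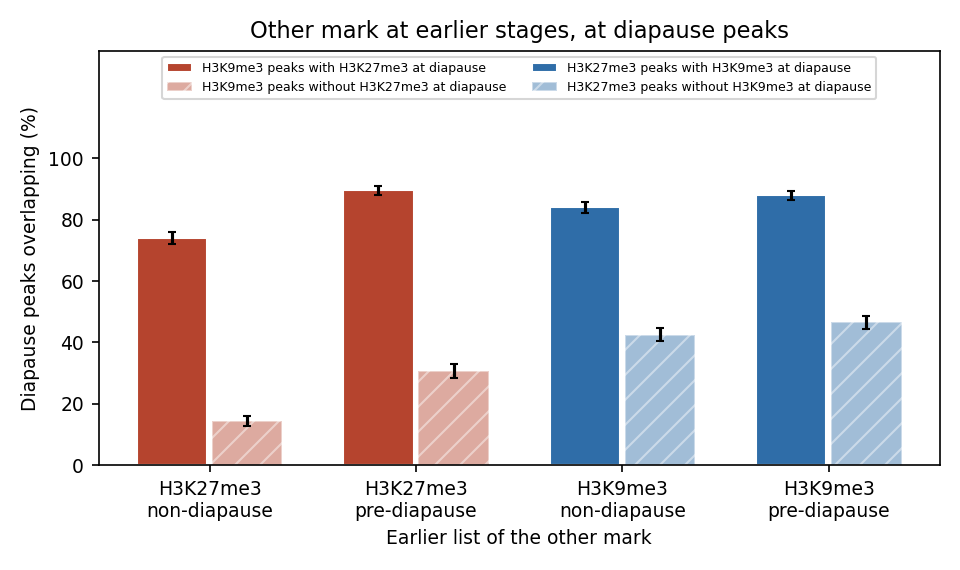
Share of diapause peaks (vertical, percent) that overlapped the other mark's list at non-diapause or pre-diapause (horizontal), for peaks with the other mark at diapause (solid) and without it (hatched), with exact 95% intervals as bars. Among peaks without the other mark at diapause, the H3K27me3 peaks stand at 42.5% and 46.6% and the H3K9me3 peaks at 14.5% and 30.6%.

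H3K27me3-only peaks with both marks at both earlier stages were narrower and stronger calls by −log10 q than those with H3K27me3 alone earlier. The 609 H3K27me3-only peaks with both marks at both earlier stages had a median width of 449 bp (429–467) and a median −log10 q of 6.22 (5.94–6.63). The 521 with H3K27me3 earlier and H3K9me3 never had a median width of 680 bp (625–745) and a median −log10 q of 3.78 (3.67–3.96). For each mark the groups were defined unalike. The group with both marks needed calls at both earlier stages, and the other group its own mark at either. NW_021135154.1, with 140 H3K27me3-only peaks, was kept in. Its H3K27me3 peaks had a median width of 669 bp and a median −log10 q of 3.23. The part of the definitions and of this scaffold in the difference was not tested. For H3K9me3 the 195 with both marks at both stages and the 687 with H3K9me3 alone earlier had median widths of 488 bp (447–556) and 514 bp (491–546), and median −log10 q of 4.43 (3.99–4.91) and 4.50 (4.33–4.85), with intervals that overlapped. Their median folds were 2.34 (2.23–2.45) and 2.10 (2.05–2.18), with intervals that did not overlap.

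Places seen at diapause alone were a larger part of the H3K9me3-only class. Neither mark had been called earlier at 505 H3K9me3-only peaks, or 28.8% (26.6–30.9), and at 449 H3K27me3-only peaks, or 21.8% (20.0–23.7), against 16.4% and 13.6% of the whole lists. Their median −log10 q was low, 3.55 (3.46–3.72) and 3.09 (2.96–3.18), against 4.35 and 4.26 for all single-mark peaks. Their median fold was 2.42 (2.34–2.49) and 2.73 (2.69–2.76), against 2.34 and 2.88. The largest H3K9me3-only group, 39.1% (36.8–41.5), had H3K9me3 and no H3K27me3 earlier, against 22.3% of the whole list. The like group of H3K27me3-only peaks made 25.3% (23.4–27.3), against 15.2%.

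Set beside the non-diapause and pre-diapause lists, the diapause lists had the smallest shared area. The area under both marks, as a share of the area under either, was 49.3, 39.7 and 27.3% in the order non-diapause, pre-diapause, diapause. Median midpoint offsets of pairs were 29.0, 35.5 and 44.5 bp in that order. At non-diapause the H3K27me3 peak was the inner one in 41.5% (39.7–43.3) of pairs and the H3K9me3 peak in 13.5% (12.3–14.8), and at pre-diapause the shares were 29.2% (27.8–30.5) and 27.4% (26.1–28.8). At diapause and pre-diapause the intervals of the 2 nested classes overlapped. The median distances of single-mark peaks to the other mark were 35.1 kb for H3K9me3-only and 41.0 kb for H3K27me3-only peaks at non-diapause and 21.4 and 22.7 kb at pre-diapause, where the lists were longest. The shared-to-single width ratio was 1.43 and 1.07 at non-diapause and 1.19 and 1.35 at pre-diapause for H3K9me3 and H3K27me3. These differences were not tested, with 1 library for each mark and stage and lists of unequal length. Non-diapause larvae also differed from the others in temperature and day length, so the 3 stages are not a time course under 1 rearing.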

How the data were processed

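Chromatin from larval heads was immunoprecipitated for H3K9me3 or H3K27me3 and sequenced. The series has 9 samples, of which the 3 inputs had no peak list here. Per the submitters' processing notes the tools were deepTools, ChIPseeker, MACS2, Picard and Bowtie2, with no version or setting. Build, background and pooling are not given in the sources used here. The deposited lists hold 9 columns and no header, read as broad peaks. Among the 29330 peaks the deposited score equalled 10 times −log10 q, rounded down, with 6 exceptions. The deposited fold enrichment is a ratio to the caller's background, and the deposited −log10 p and −log10 q are those of the authors' caller. Depth is unknown.

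Starts were made 1-based. Peaks sharing at least 1 bp were paired, distances count the bases between peaks, and scaffold spans run to the farthest listed peak. Wide means over 2000 bp. Pairing, nesting and distances were tested on simulated lists and found as planted. Software was scipy 1.17.1, pandas 2.3.3, numpy 2.4.6 and Python 3.11.15. The comparisons, the limits and the rule for named places were chosen with earlier results of these data known. By that rule the text names, for each mark, the 5 single-mark peaks of highest fold, the 3 widest and the 3 farthest from the other mark. It also names the 5 pairs of highest lower fold, 2 pairs of each nesting class, the 5 scaffolds with most peaks of one mark and 0 of the other, and the 5 with the largest difference in counts. Other places were picked after their values were seen. Alternatives were peaks with −log10 q from 3 upward, sharing by 50% of the peak, lists of equal length, the mitochondrial sequence kept, and, added after the data were seen, one scaffold left out.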

Additional observations from a re-analysis of the deposited data

Results flagged for a closer look

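The difference in list length between the marks had another sign at diapause than at the earlier stages. H3K27me3 peaks less H3K9me3 peaks numbered 308 at diapause, 3812 against 3504, and -728 at non-diapause and -686 at pre-diapause. Among peaks with −log10 q from 3 upward they numbered 266, -744 and -620, with the same signs. Each count comes from 1 list, so this difference was not tested.

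The sequence left out as mitochondrial, whose DNA is known to carry no histones, had 1 diapause peak for each mark. Its fold was 10.5 in the H3K9me3 list and 11.4 in the H3K27me3 list, against highest folds of 16.8 and 24.8 on the scaffolds. In the same order of marks, its highest folds at non-diapause were 6.26 and 4.46, against 28.6 and 19.4 on the scaffolds. At pre-diapause they were 5.62 and 4.97, against 39.7 and 32.4. The part of such signal in the overlap of the marks, or in differences between stages, was not tested.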

How the results depend on the processing

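With −log10 q of at least 3, the shared part was 51.9% of H3K9me3 and 47.9% of H3K27me3 peaks, and 46.4 and 43.3% of their bases. Distances of single peaks were 41.8 and 45.2 kb, 58.7% of H3K27me3-only peaks had earlier H3K9me3, and rich scaffolds numbered 0 and 1. Requiring 50% of the peak gave shares of 45.5 and 43.3%, distances of 31.7 and 37.8 kb and width ratios of 1.06 and 1.11. In lists of equal length the shared bases were 43.6% of H3K9me3 and 43.8% of H3K27me3, 48.9% of H3K27me3 peaks were shared, and the other mark was found earlier at 20.3% of H3K9me3-only peaks and 43.1% of H3K27me3-only peaks. With the mitochondrial sequence kept the shared bases were 44.8 and 41.7%. Without NW_021135154.1, an alternative chosen after seeing the data, they were 44.3 and 43.3%, the distance of H3K27me3-only peaks was 37.9 kb, and 56.5% of them had earlier H3K9me3. In lists of equal length the shared part was 48.7% (47.0–50.4) of H3K9me3 and 48.9% (47.2–50.6) of H3K27me3 peaks. Since nearly all pairs were one to one, lists of equal length give nearly equal shares. No order of the marks is read from them. The cause of each move was not tested. The other values stayed within the counting interval of the reported one or, for counts of rich scaffolds, which have no interval, were unchanged. They were 4 of 13 under the stricter −log10 q, 2 of the 8 that apply under 50% overlap, and 8 of 13 in lists of equal length. With the mitochondrial sequence they were 11 of 13, and without the scaffold 9 of 13. Intervals for shares of bases count every base and are very narrow, so small changes in those shares fall outside them. No paired analysis was possible because each group has 1 sample. Depth is unknown, so weak places may be missing from either list.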

Other observations

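Peaks in the first 1000 bp of a scaffold made 2.71% (2.20–3.30) of the diapause H3K9me3 list and 1.97% (1.55–2.46) of the H3K27me3 list. Of these 95 H3K9me3 peaks 41.1% (31.1–51.6) were shared, and of the 75 H3K27me3 peaks 49.3% (37.6–61.1), both within counting error of the whole lists. No peak lay closer than 622 bp to another peak of the H3K9me3 list, or than 610 bp to another of the H3K27me3 list.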
